A study of Mus musculus with 10 samples.

Results

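The genes described here are 10 genes of the extracellular matrix and the cell surface, read from tumor cells but not only from them. They were measured in single-cell libraries of SW1 melanoma and are Col3a1, Col18a1, Serpinh1, Lama4, Sparc, Postn, Mgp, Serpine2, Tm4sf1 and Ecrg4. They are 10 of the 32285 genes in the count matrices, and they were chosen by their levels in these same data, so their higher level in tumor barcodes than in immune barcodes is how they were picked and not a finding. A barcode stands for a droplet with, in most cases, 1 cell. Each RNA molecule that is caught gets its own tag, a unique molecular identifier (UMI), and is counted 1 time whatever the length of its transcript, so levels are given as counts per 1000000 UMIs of a group of barcodes (CPM) and were not divided by transcript length.

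The extracellular matrix is the protein scaffold around cells. Fibrillar collagens such as type III collagen, the product of Col3a1, form its fibers, whereas laminins and collagen XVIII belong to the basement membrane, the thin sheet under epithelia and around vessels, nerves and Schwann cells. Matricellular proteins such as Sparc and periostin bind collagen and cells without being fibers themselves. In tumors most fibrillar collagen is usually made by fibroblasts, with a smaller part from the tumor cells, and cells of the neural crest lineage, to which melanocytes and Schwann cells belong, make laminins and collagen binding proteins.

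SW1 is a mouse melanoma line that was grown under the skin of female C3H/HeJ mice, 4 to 6 weeks old at injection. Treatment began after 10 days per the labels, although the study's methods give another number of days, and tumors were taken at day 0 (before treatment) or after 7 or 21 days of plain drinking water (control) or of water with L-fuc, the sugar L-fucose. There was 1 pooled library for the control of each of days 0, 7 and 21 and for L-fuc of each of days 7 and 21. Day 0 had 3 mice. The arms had 5 or 6 mice each, since the labels give both numbers. How many of them entered the library of each day is not given in the sources used here. All mice carried the same tumor. No transgene or deletion is named in the labels, but C3H/HeJ mice, which the controls are too, have a defective Tlr4 gene. The labels also give the dose both as 100 mM and as 100 nM. Cells were sorted for CD45, the product of Ptprc, which tumor cells lack. With 1 library per condition no test between conditions was possible, and barcodes were not counted as replicates: all intervals are 95% intervals that cover counting error only.

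Each of the members is a protein-coding gene of the mm10 (GRCm38) genome. In the GENCODE vM21 annotation Col3a1 lies at chr1:45311538-45349706 on the plus strand, Ecrg4 on the same chromosome and strand at chr1:43730602-43742578 (under its older name 1500015O10Rik) and Serpine2 at chr1:79794197-79861180 on the minus strand. Postn (chr3:54361109-54391037, plus) and Tm4sf1 (chr3:57285611-57301988, minus) share chromosome 3, and Col18a1 (chr10:77052178-77166548, minus) and Lama4 (chr10:38965515-39110188, plus) share chromosome 10. Mgp lies at chr6:136872435-136875823, Serpinh1 at chr7:99345376-99353239 and Sparc at chr11:55394500-55423183, all on the minus strand. The members are therefore spread over 6 chromosomes and do not form a cluster.

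The sequences before the start sites were read from RefSeq (GRCm38.p6), where 8 of the 10 members (all but Mgp and Lama4) had an entry, with 10 start sites in all. The 250 bases upstream of Col3a1, Ecrg4, Serpine2 and Postn are shown because these genes had the most different patterns among cells: Col3a1 and Postn were shared with the barcodes of type I collagen, Ecrg4 was not, and Serpine2 varied most closely with the other members. Letters in capitals mark matches on either strand to TATAAA (the TATA box), ACAAAG (a core read by SOX factors), GGAATG (a core read by TEAD factors), TGANTCA (AP-1) or CACGTG (an E-box).
Col3a1, chr1:45311288-45311537, plus strand: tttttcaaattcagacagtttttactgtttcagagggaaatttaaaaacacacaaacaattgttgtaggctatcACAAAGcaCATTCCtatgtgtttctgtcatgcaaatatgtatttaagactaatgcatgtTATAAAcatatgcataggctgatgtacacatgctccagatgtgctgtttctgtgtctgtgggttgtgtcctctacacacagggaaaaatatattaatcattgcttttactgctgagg
Ecrg4, chr1:43730352-43730601, plus strand: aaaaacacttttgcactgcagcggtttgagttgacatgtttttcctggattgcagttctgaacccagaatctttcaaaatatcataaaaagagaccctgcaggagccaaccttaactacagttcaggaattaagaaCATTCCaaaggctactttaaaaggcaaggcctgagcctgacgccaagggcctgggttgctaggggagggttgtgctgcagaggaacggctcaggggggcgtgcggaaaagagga
Serpine2, chr1:79858666-79858915, minus strand: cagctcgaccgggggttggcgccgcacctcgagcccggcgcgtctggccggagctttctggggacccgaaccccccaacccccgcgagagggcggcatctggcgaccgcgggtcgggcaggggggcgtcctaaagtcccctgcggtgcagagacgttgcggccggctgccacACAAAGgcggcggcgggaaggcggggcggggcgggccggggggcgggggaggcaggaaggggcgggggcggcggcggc
Postn (the second of 2 start sites), chr3:54360857-54361106, plus strand: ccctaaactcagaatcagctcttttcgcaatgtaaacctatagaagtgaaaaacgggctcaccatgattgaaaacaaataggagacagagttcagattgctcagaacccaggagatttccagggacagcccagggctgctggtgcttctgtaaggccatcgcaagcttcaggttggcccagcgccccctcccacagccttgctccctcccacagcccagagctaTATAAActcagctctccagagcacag
In these windows ACAAAG began 176 bases before the start of Col3a1 and 78 bases before that of Serpine2, and TATAAA began 26 bases before the start of Postn and 117 bases before that of Col3a1. A reverse match to GGAATG lay 114 bases before the start of Ecrg4 and 168 bases before that of Col3a1. Over the 10 windows of the members, TATAAA was found in 2, ACAAAG in 2, GGAATG in 3, and neither TGANTCA nor CACGTG in any. Of all 32851 windows of the same length in the table, 12.4% held TATAAA, 16.5% ACAAAG, 12.6% GGAATG, 6.75% TGANTCA and 6.02% CACGTG. A match is a description of the letters and not of a bound site. The windows also differed in composition, from 35.2% G and C before Col3a1 to 78.8% before Serpine2.

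Barcodes were kept when they had 500 genes or more and no more than 10% of their UMIs from mitochondrial genes, and those with at least 1 Sox10 UMI and no Ptprc UMI were called tumor barcodes. In spite of the CD45 sort they made up 18.0% to 50.3% of the kept barcodes: 265 of 1470 at control day 0, 8996 of 17897 at control day 7, 2986 of 9034 at L-fuc day 7, 483 of 1573 at control day 21 and 321 of 1182 at L-fuc day 21. Their median depth was 16881, 7412, 13922, 22158 and 23424 UMIs in that order. Sox10 had 399 to 485 CPM, but its presence is set by this rule. Of the lineage markers outside the rule, Erbb3 (104 to 152), Mitf (28.3 to 45.6) and S100b (25.3 to 50.2) were present in all 5 libraries. The pigment genes Pmel, Dct and Mlana stayed at or below 2.62, and Tyr had 0 UMIs in each library, which allows up to 0.0415 to 0.655 CPM. The barcodes therefore carry neural crest genes with hardly any pigment genes, and they are called tumor barcodes after their rule. Of 15288 barcode sequences in the L-fuc day 7 library, 433 (2.83%) also occurred at control day 7, 47 of them as tumor barcodes in both, and at most 86 were shared by any other pair of libraries.

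Sparc had the highest level of the members in each library and Col3a1 the lowest, and together the 10 genes took about 1% of the UMIs of tumor barcodes. Their summed level was 11886 CPM at control day 0, 10285 at control day 7, 10360 at L-fuc day 7, 13219 at control day 21 and 10592 at L-fuc day 21. The order of the levels changed little: Ecrg4 was second in every library and Lama4 ninth, while Tm4sf1 and Serpine2, Serpinh1 and Mgp, and Col18a1 and Postn traded places with each other and their ranges overlapped. No member's highest library was more than 1.78-fold above its lowest.

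**Figure D1:**
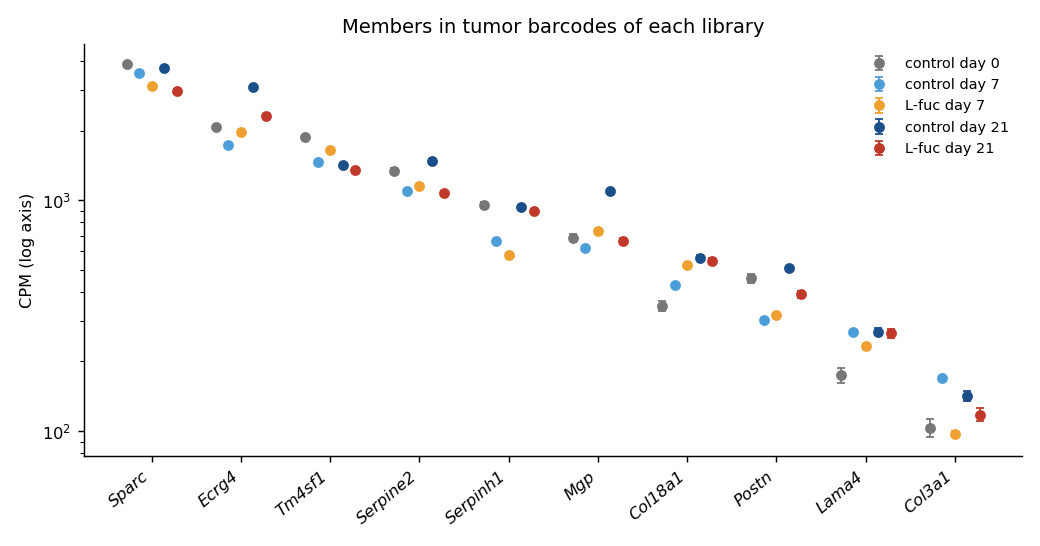
Level of each member (CPM, log axis) in tumor barcodes of the 5 libraries, 1 point per library with its 95% counting interval, with members ordered by their median. Sparc sits at 2980 to 3876 and Col3a1 at 96.8 to 169, and the spread between libraries is widest for Ecrg4 and Mgp, whose highest point is control day 21.

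Among the collagens and their chaperone, Col3a1 encodes the chain of type III collagen. Its level was 103 CPM at control day 0, 169 at control day 7, 96.8 at L-fuc day 7, 142 at control day 21 and 118 at L-fuc day 21. Control day 7 was the highest library, and L-fuc day 7 and control day 0 were the lowest with overlapping counting intervals. In the 5 libraries 51.3% to 69.8% of tumor barcodes had a Col3a1 UMI. Col18a1, the collagen of basement membranes whose end is released as endostatin, had 347, 430, 524, 564 and 547 CPM in the same order of libraries. It was lowest at control day 0 and differed little between both libraries of day 21. Serpinh1, the endoplasmic reticulum chaperone that collagen needs to fold, had 952, 666, 578, 934 and 894. Both day 7 libraries were below the other three.

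Lama4, a laminin alpha chain found in the basement membranes of vessels and nerves, had 174 CPM at control day 0 and 232 to 269 in the other 4 libraries. Control day 7, control day 21 and L-fuc day 21 had 269, 269 and 265, so they could not be told apart within their counting intervals.

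The matricellular genes were led by Sparc, which encodes a collagen-binding glycoprotein. It had 3876 CPM at control day 0, 3540 at control day 7, 3118 at L-fuc day 7, 3734 at control day 21 and 2980 at L-fuc day 21, and a UMI of it was found in 96.9% to 98.5% of tumor barcodes. Within each day the control library was the higher one. Postn, which encodes periostin, had 458, 303, 317, 506 and 390, with the day 7 libraries lowest. Mgp, the vitamin K-dependent inhibitor of calcification, had 686, 617, 733, 1090 and 667 and was set apart by its level at control day 21. Mgp was also the least evenly spread over barcodes at day 21, where the 5% of tumor barcodes with the most Mgp UMIs held 29.4% of them without and 37.7% with L-fuc, against 14.0% and 19.8% for Sparc.

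Serpine2, which encodes an inhibitor of thrombin and of plasminogen activators, had 1339, 1093, 1153, 1481 and 1068 CPM. Tm4sf1, which encodes a small multipass membrane protein of many tumors and of endothelium, had 1870, 1467, 1640, 1416 and 1352, and the day 0 library was above the other 4. Ecrg4, which encodes a secreted peptide precursor, had 2082, 1731, 1970, 3083 and 2312. Its highest value, at control day 21, lay above all the others, and 1 tumor barcode of that library held 509 of its 33124 UMIs.

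The rule that defines tumor barcodes had a soft edge. Among Ptprc-negative barcodes that failed the immune and collagen gates, those with 1 Sox10 UMI, just inside the rule, held 7066 to 9755 CPM of the members over the 5 libraries. Those with 0, just outside, held 2491 to 7362, and those with 3 or more held 10651 to 13261. Barcodes at the edge were shallow, with a median of 1248 to 4609 UMIs inside it and of 1251 to 2492 outside it.

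Macrophage barcodes (at least 10 UMIs of C1qa, C1qb and C1qc) and T cell barcodes (at least 2 UMIs of Cd3e, Cd3d and Cd3g) give the background, since these cells are not known as sources of most of these genes. The summed level of the members in macrophages was 0.952% of the tumor level at control day 0, 28.8% at control day 7, 15.6% at L-fuc day 7, 3.81% at control day 21 and 5.48% at L-fuc day 21. In T cells it was 2.83%, 41.1%, 18.4%, 14.1% and 29.8%. Single T cell barcodes that also passed the tumor gate held 808 of the 1277 member UMIs at control day 0, 834 of 1036 at control day 21 and 1339 of 3280 at L-fuc day 21, and without them the T cell levels were 1.05%, 2.99% and 19.1%. Without the leading barcode the other values lay at 0.703% to 40.9%, none of them further than 1.5 times from the value with it. The background thus differed far more between libraries than the tumor level did, and it was highest in both immune classes at control day 7. The classes are not independent: of 477, 1497, 1820, 67 and 50 T cell barcodes, 81, 355, 472, 11 and 11 also passed the macrophage gate. The median depth was 5737 to 7888 UMIs for macrophages and 4615 to 10904 for T cells. In the same classes Sox10 stood at 1.38%, 25.9%, 15.5%, 3.05% and 4.95% of its tumor level in macrophages and at 2.28%, 36.1%, 17.6%, 9.26% and 25.2% in T cells. Its tumor level is raised by the rule that defines tumor barcodes, so these shares are not an independent reference.

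In the day 7 libraries the members stood at similar shares of their tumor levels. At control day 7 each of them stood in macrophages at 26.9% to 35.0% of its tumor level and in T cells at 38.6% to 49.5%. At L-fuc day 7 all but Col3a1 stood at 13.9% to 17.3% in macrophages and at 16.3% to 19.7% in T cells, while Col3a1 stood at 66.7% and 79.5%. A single barcode held 632 of the 1200 Col3a1 UMIs of macrophages and of the 1164 of T cells, because it passed both gates. It had 30002 UMIs, 422 of Col1a1, 2 of Ptprc and none of Sox10, and without it Col3a1 stood at 31.6% and 36.4%, still above the other members.

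In the T cells of day 21, of which the control had only 67 and L-fuc 50, Ecrg4 had the highest share. It stood at 32.2% of the tumor level in the control library, where Col3a1 came next at 27.8% and Lama4 was lowest at 1.33%. In that library 1 barcode with 19 Sox10 UMIs, which passed the tumor gate as well, held 509 of the 553 Ecrg4 UMIs. Without it Ecrg4 stood at 2.79%, and without the leading barcode of each member Col3a1 stood at 6.89% and all 10 at 0.727% to 6.89%. At L-fuc day 21 Ecrg4 stood at 52.3% and at 30.3% without its leading barcode, which also passed the tumor gate. The members had no common share there: they stood at 13.7% to 52.3%, with Serpinh1 at 42.0%. Without the leading barcode of each member the range was 10.7% to 30.3%. The share of barcodes with a Sparc UMI was 6.14% to 78.9% in macrophages and 2.94% to 80.7% in T cells, against the 96.9% to 98.5% of tumor barcodes. Over all libraries 2 to 184 barcodes of an immune class were tumor barcodes too, 12.3% of the T cells at control day 7 being the highest share.

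**Figure D2:**
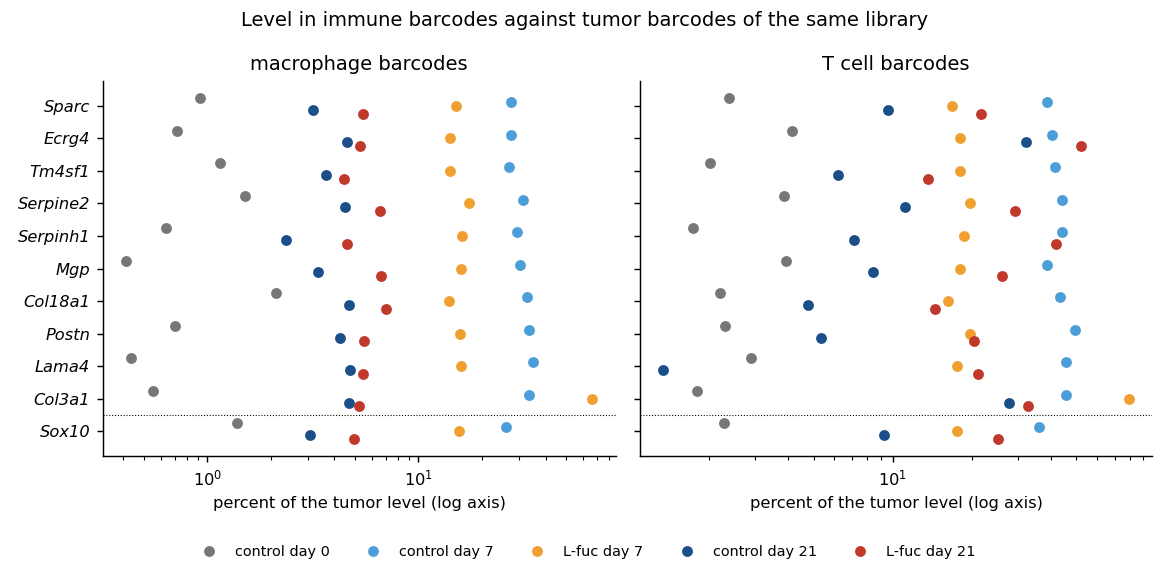
Level of each member in macrophage (left) and T cell barcodes (right) as a percent of its level in tumor barcodes of the same library (log axis), 1 point per library. Sox10, which is part of the rule for tumor barcodes, is under the dotted line. At day 7 the points of a library line up, apart from Col3a1 at L-fuc day 7 (66.7% and 79.5%), and the control day 0 points of macrophages lie at 0.412% to 2.12%.

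Most tumor barcodes held several members at once. The members were chosen for high levels in tumor barcodes, and such levels alone put several of them into a barcode. The shares below are therefore a description and not a finding. After each barcode was thinned to 1000 UMIs, at least 3 of the 10 members had a UMI in 94.3% of tumor barcodes at control day 0 (247 of 262, 95% interval 90.7% to 96.8%), in 89.3% at control day 7 (8012 of 8971), in 87.0% at L-fuc day 7 (2579 of 2966), in 94.8% at control day 21 (452 of 477) and in 88.2% at L-fuc day 21 (270 of 306). The median was 5 members in every library, and 0.491% to 1.48% of tumor barcodes had none. Without thinning the shares were 94.7% to 99.2%. Thinning left out 3 to 25 shallower tumor barcodes per library.

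Immune barcodes differed by library in the same measure. At least 3 members were found in 0.443% of macrophages at control day 0, in 24.7% at control day 7, in 11.1% at L-fuc day 7, in 2.46% at control day 21 and in 14.0% at L-fuc day 21. For T cells the shares were 0.638%, 37.0%, 13.1%, 1.52% and 10.2%, the last 2 of them from 66 and 49 barcodes. The immune barcodes with at least 3 members held 6440 to 16422 CPM of the members, a level that the split itself partly sets. Sox10 in these barcodes was at 228 to 514 CPM, against 399 to 485 in tumor barcodes, where the rule partly sets it. At control day 7 the macrophages among them had 228 of Sox10 against 399 in tumor barcodes. Those with fewer held 20.4 to 1649 of the members and 0.538 to 52.5 of Sox10. The highest of these values, from T cells at control day 21, rested on the barcode with 834 member UMIs and was 134 without it, and that of T cells at L-fuc day 21 went from 468 to 41.0 without a barcode that held 338 of 369 member UMIs and passed the tumor gate. At day 7 the immune barcodes with several members were also deeper, with medians of 6324 to 11741 UMIs against 4167 to 5720, whereas the macrophages with several members at day 21 were shallower, with 1930 and 2545 UMIs against 11266 and 6014. No caller of doublets was run, and the part of doublets and of free RNA in these shares was not tested.

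**Figure D3:**
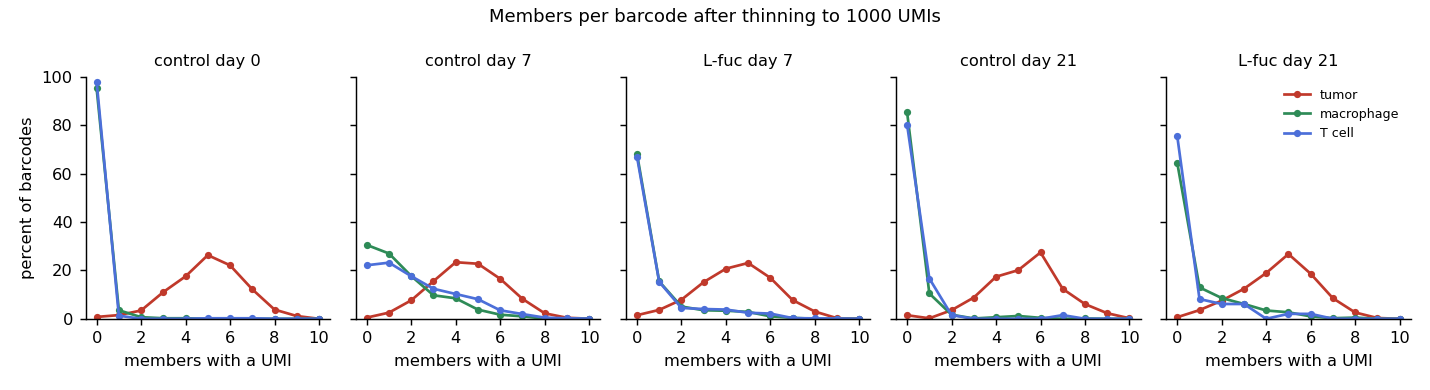
Number of members with at least 1 UMI per barcode after thinning to 1000 UMIs (horizontal axis), against the percent of barcodes (vertical axis), for tumor, macrophage and T cell barcodes of each library. Tumor barcodes peak at 4 to 6 members in each library, and immune barcodes peak at 0 or 1, with the longest tail at control day 7.

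Fibroblasts make many of the same genes, so barcodes with type I collagen (at least 10 UMIs of Col1a1 and Col1a2, no Sox10 and no Ptprc UMI) were set beside the tumor barcodes. This gate was added after a gate on Dcn, Lum and Pdgfra had been seen to hold barcodes with tumor-like levels, since tumor barcodes themselves had 168 to 330 CPM of Lum. There were 1, 34, 39, 16 and 10 type I collagen barcodes in the order of libraries, and control day 0 was left out. From control day 7 to L-fuc day 21, in that order, their pericyte markers summed to 2165, 1569, 548 and 266 CPM. Their fibroblast markers, which include the genes of this gate, summed to 20195, 24575, 40417 and 38456. The marker levels of these barcodes thus differed between libraries. In tumor barcodes Col1a1 had only 0.437 to 33.0 CPM.

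Col3a1, Sparc, Serpinh1 and Postn were higher in type I collagen barcodes than in tumor barcodes in all 4 libraries, and the other 6 members were not. Col3a1 had 5325 CPM in them at control day 7, 8237 at L-fuc day 7, 20063 at control day 21 and 19383 at L-fuc day 21, which is 31.5, 85.1, 141 and 165 times its level in tumor barcodes. Sparc stood at 2.14, 2.92, 3.72 and 4.67 times its tumor level, Serpinh1 at 2.81, 3.80, 2.60 and 3.23 times and Postn at 1.95, 2.37, 5.54 and 4.58 times. Thus the chain, its chaperone and both collagen-binding genes were above the tumor level in each of these libraries.

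The opposite was seen for the membrane and peptide genes. Ecrg4 stood at 0.0772, 0.0332, 0.0296 and 0.0565 times its tumor level in type I collagen barcodes and Tm4sf1 at 0.139, 0.110, 0.177 and 0.0918 times. Col18a1 stood at 0.501, 0.303, 0.136 and 0.291 times and Lama4 at 0.621, 0.603, 0.821 and 0.798 times. Mgp and Serpine2 had no common value: Mgp went from 0.987 times its tumor level at control day 7 (95% interval 0.842 to 1.15) to 0.0163 times at L-fuc day 21, where only 5 UMIs were counted, and Serpine2 from 1.17 times to 0.143 times at control day 21.

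At control day 21 the ratio was 2-fold or more higher for 4 of 10 members and 2-fold or more lower for 5, where 12.7% and 23.6% of the 11235 genes with at least 30 UMIs were so. At L-fuc day 21 the members gave the same counts, against 11.3% and 28.1% of 10849 genes. The levels in tumor barcodes were part of how the members were chosen, and nothing is read from these counts. Only 10 to 39 barcodes stand behind each type I collagen value.

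**Figure D4:**
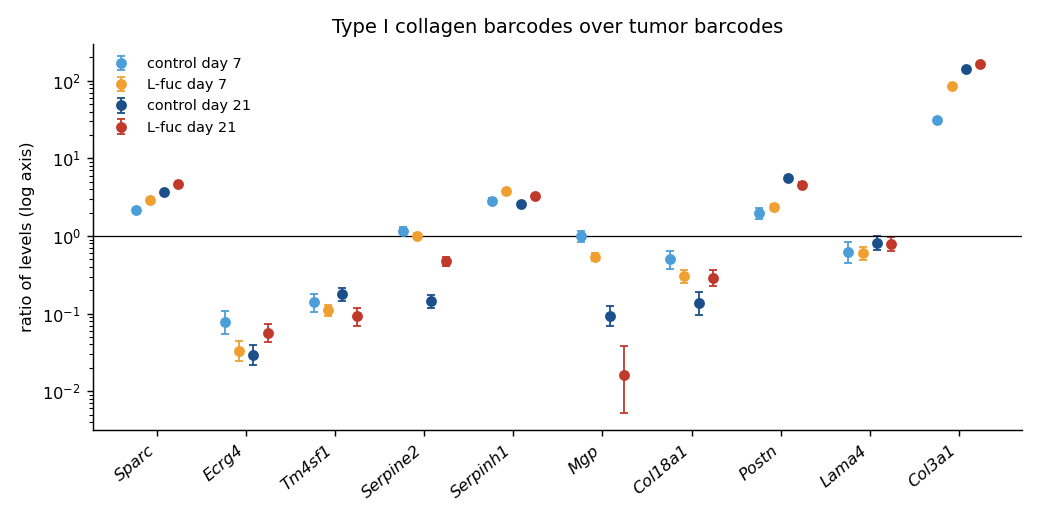
Ratio of each member's level in type I collagen barcodes to its level in tumor barcodes of the same library (log axis), 1 point per library with its 95% counting interval, and a line at 1. Col3a1 lies at 31.5 to 165, Sparc, Serpinh1 and Postn above 1 in all 4 libraries, and Ecrg4 and Tm4sf1 below 0.18.

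Col3a1 was read from tumor barcodes with and without type I collagen. Tumor barcodes with no UMI of Col1a1 or Col1a2 were 92.5% to 98.9% of all, and their Col3a1 level was 103 CPM at control day 0, 153 at control day 7, 94.5 at L-fuc day 7, 142 at control day 21 and 117 at L-fuc day 21. The barcodes with such a UMI stood above these at control day 7 (413 barcodes), with 435 CPM (95% interval 416 to 456), and at L-fuc day 7 (133 barcodes), with 152 CPM (134 to 172). In the other 3 libraries they had 101 to 145 CPM, with intervals that overlapped. At control day 7, 1823 of the 12224 Col3a1 UMIs of tumor barcodes were thus found beside type I collagen. A barcode with no such UMI can still hold free RNA or RNA of a second cell, whose part in Col3a1 was not tested.

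Over tumor barcodes with at least 10000 UMIs, thinned to that depth, the members were weakly to moderately related to each other. The barcodes share a library and its free RNA, so the coefficients describe these libraries only, over 216 to 2402 barcodes each. Pearson's r of log2(UMIs + 1) was highest for Sparc with Serpine2 (median over the 5 libraries 0.42, range 0.39 to 0.46) and for Mgp with Serpine2 (0.42, range 0.35 to 0.52). Postn with Serpine2 followed (0.39), then Serpinh1 with Sparc (0.37) and Mgp with Ecrg4 (0.36). Serpine2 was thus in each of the 3 highest pairs. The lowest was Col18a1 with Mgp (−0.12, negative in 5 of 5 libraries from −0.15 to −0.05), and Col3a1 with Tm4sf1 was at 0.02.

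Other genes followed the members across cell classes. Over the 15 sums of 5 libraries and 3 classes (tumor, macrophage, T cell), the 10 genes with the highest Pearson's r with the members' mean log2 level, of 14115 genes with at least 100 UMIs, were Rhobtb3 (0.9964), Col16a1, Ncam1, Lamb1, Ltbp1, Nedd4, Fermt2, Nid1, Epb41l4b and Chl1 (0.9934). Among them are the collagen gene Col16a1, the laminin gene Lamb1, the TGF-beta binding gene Ltbp1 and the nidogen gene Nid1. The share of matrix genes among all 14115 was not counted, so nothing is read from their number. Among the members themselves, r with the mean of the others was highest for Serpine2 (0.9952) and Sparc (0.9951) and lowest for Col3a1 (0.9330) and Ecrg4 (0.9331). The points share libraries and depth, and the tumor barcodes set the range.

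Cycling tumor barcodes (at least 2 UMIs of Mki67 and Top2a) had less of 4 members than the other tumor barcodes of the same library. They numbered 60, 2354, 662, 162 and 135 in the order of libraries and were deeper, with median UMIs of 9894 to 33736 against 6853 to 19897. Mgp stood at 0.691 to 0.795 times the level of the other barcodes, Sparc at 0.787 to 0.913 times, Postn at 0.731 to 0.929 times and Serpine2 at 0.819 to 0.963 times. Col18a1 alone was higher in each library, at 1.04 to 1.34 times, and the summed level stood at 0.869 to 0.988 times. In 5 of 5 libraries 1 of 10 members was thus higher and 4 were lower, where 36.6% and 19.8% of 9173 genes with at least 30 UMIs in each library were so.

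Hypoxic tumor barcodes (at least 1 UMI of Car9, a target of the hypoxia response) had lower levels of 6 members in each library. There were 71, 2498, 1268, 104 and 57 of them. Relative to the other tumor barcodes Col3a1 stood at 0.576 to 0.777 times, Sparc at 0.707 to 0.869 times, Serpinh1 at 0.642 to 0.929 times and Lama4 at 0.783 to 0.944 times. Serpine2 (0.770 to 0.952 times) and Col18a1 (0.822 to 0.973 times) were lower in each library too. Tm4sf1 stood at 1.11 to 1.20 times and was the only member higher in each. These are 6 members lower and 1 higher in 5 of 5 libraries, where 43.5% of the 9173 genes were lower and 10.3% higher, so a lower level in hypoxic barcodes was common among all genes.

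Before treatment and after 7 days on plain water the members differed in both directions. From control day 0 to control day 7 the ratio of levels was 1.64 for Col3a1 (95% interval 1.50 to 1.80), 1.55 for Lama4 (1.44 to 1.66) and 1.24 for Col18a1 (1.18 to 1.30). For the other 7 members it was below 1, from 0.662 for Postn and 0.699 for Serpinh1 to 0.913 for Sparc, and for the sum it was 0.865. None of the 10 was 2-fold or more higher or lower, where 11.1% and 2.69% of 13370 genes were.

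From control day 7 to control day 21 the median log2 ratio of the members was 0.41, against 0.16 over all 13524 genes. Intervals above 1 were found for 7 of the members, and the share of all genes with such an interval was not counted. The ratio of Sparc, one of these members, was higher than that of only 41.7% of all genes. Ecrg4 stood at 1.78 times (95% interval 1.76 to 1.80), Mgp at 1.77 times (1.73 to 1.80) and Postn at 1.67 times (1.62 to 1.72), followed by Serpinh1 at 1.40, Serpine2 at 1.35, Col18a1 at 1.31 and Sparc at 1.06. Col3a1 (0.840) and Tm4sf1 (0.965) were below 1, and the interval of Lama4 included 1 (0.961 to 1.04). The summed level stood at 1.29 times. Again no member was 2-fold or more higher or lower, where 5.65% and 7.27% of 13524 genes were. Postn passed 2-fold (2.09 times) when only tumor barcodes of 10000 to 30000 UMIs were used, where Mgp stood at 1.99 and Ecrg4 at 1.47 times.

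L-fuc and control differed little in the summed level at day 7, at a ratio of 1.01 (95% interval 1.00 to 1.01), yet single members differed. Col3a1 stood at 0.573 times its control level (0.553 to 0.593), the furthest from 1 of the 10, and Lama4, Serpinh1 and Sparc stood at 0.863, 0.868 and 0.881. Col18a1 (1.22), Mgp (1.19), Ecrg4 (1.14), Tm4sf1 (1.12), Serpine2 (1.06) and Postn (1.05) were higher with L-fuc. None was 2-fold or more higher or lower, where 1.51% and 3.83% of 13983 genes were. Without tumor barcodes that had a Col1a1 or Col1a2 UMI the ratio of Col3a1 was 0.619, and over all 9 alternative settings it lay between 0.549 and 0.619.

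The libraries of day 7 also differed in what else their tumor barcodes held. All 7 macrophage markers were found in the tumor barcodes of each library. Their summed level was 309 CPM without and 147 with L-fuc, that of the 6 T cell markers 32.9 and 15.9, and that of the 5 red cell markers 640 and 1668. In the other libraries macrophage markers were at 39.5 to 101 and red cell markers at 0.873 to 5.68. The tumor barcodes of the control were shallower, with a median of 7412 UMIs against 13922. Fibroblast markers were at 211 to 408, pericyte markers at 8.30 to 107, endothelial markers at 10.5 to 15.5, epithelial markers at 0 to 10.4 and neutrophil markers at 0.186 to 5.27 over the 5 libraries. Ratios were recomputed in a depth range, without tumor barcodes in the C1q or CD3 gates, and outside mitochondrial, ribosomal and hemoglobin genes. Values under such settings are given in the last section. Beyond this, the part of these differences in the ratios was not tested.

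At day 21, 8 of the 10 members had a lower level with L-fuc than in the control library, with an interval below 1. The share of all genes with such an interval was not counted. Mgp stood at 0.612 times (0.592 to 0.633), Serpine2 at 0.721, Ecrg4 at 0.750, Postn at 0.771, Sparc at 0.798 and Col3a1 at 0.830 times. Tm4sf1 (0.955) and Serpinh1 (0.957) were close to 1, and the intervals of Col18a1 (0.931 to 1.01) and Lama4 (0.928 to 1.04) included it. Among all genes the ratios of Tm4sf1 and Serpinh1 ranked above 40.4% and 40.8%, near the middle. The summed level stood at 0.801 times (0.794 to 0.808). The median log2 ratio of the members was −0.30, against −0.01 over all 11507 genes, of which 1.87% were 2-fold or more higher and 0.713% lower, and no member was either. In tumor barcodes of 10000 to 30000 UMIs Lama4 (1.23) and Col18a1 (1.14) stood above 1 and Mgp at 0.817 times, so the direction of Lama4 and Col18a1 depended on the depth of the barcodes.

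**Figure D5:**
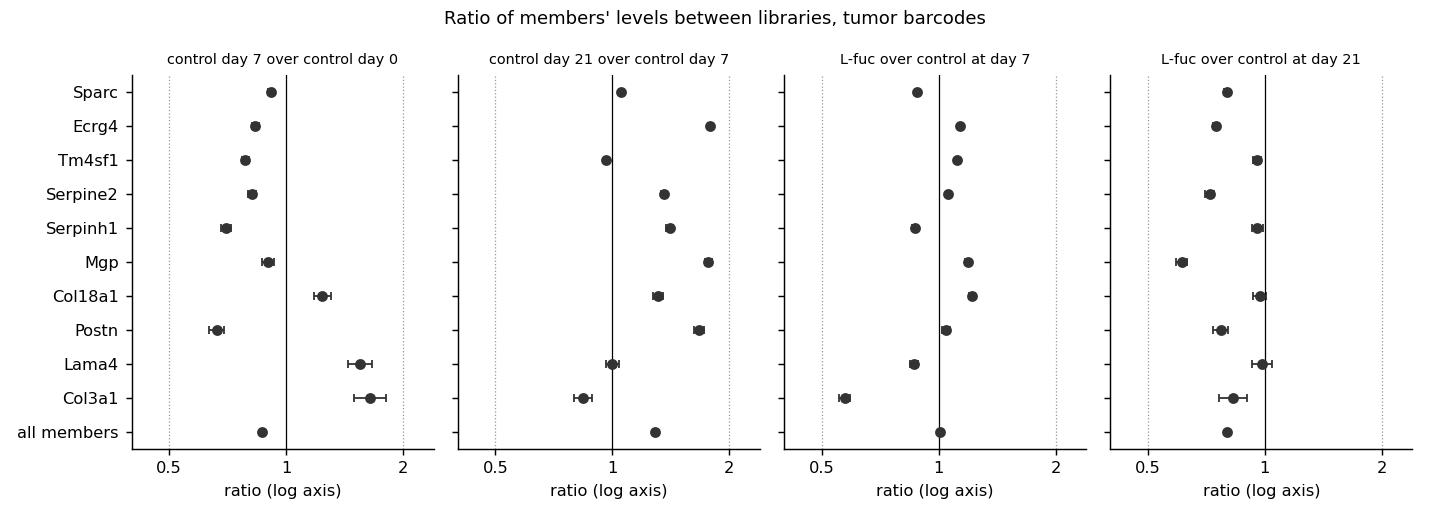
Ratio of each member's level between 2 libraries in tumor barcodes (log axis) for the 4 comparisons, with 95% counting intervals, a line at 1 and dotted lines at 2-fold. No point passes a dotted line, Col3a1 at day 7 (0.573) comes closest to the lower one, and all points lie left of 1 for L-fuc over control at day 21, those of Col18a1 and Lama4 with intervals that include it.

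These comparisons share libraries, since control day 7 enters 3 of them and control day 21 enters 2. For Mgp this value (1090 CPM) stood above the 617 to 733 of the other 4 libraries, and for Ecrg4 3083 stood above 1731 to 2312.

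The other genes of the matrix were taken from 6 lists (interstitial collagens, basement membrane, matricellular proteins and glycoproteins, collagen folding, proteases and their inhibitors, and matrix receptors) with 101 genes beside the members. In tumor barcodes, matricellular genes such as Ccn1 (492 to 2918 CPM), an early gene of growth and stretch responses, Spp1 (731 to 1165), the osteopontin gene, and Fbln2 (310 to 494) reached the range of the members. Among collagens Col5a2, which encodes a fibril-regulating chain, had 343 to 503. The laminin chains that pair with Lama4 were present as well, with 172 to 269 CPM of Lamb1 and 233 to 353 of Lamc1, while Lama1, Lama2, Lama3 and Col4a5 were at or below 0.484. These levels do not give the source: Spp1 was not 5-fold above immune barcodes in any library, and no list gene was at control day 7. The members were not 5-fold above immune barcodes at control day 7 either, at 2.02 to 3.71 times. Ccn1, Fbln2, Col5a2, Lamb1 and Lamc1 passed 5-fold in some of the other libraries.

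From control day 0 to control day 7, 20 of the 94 other matrix genes with at least 30 UMIs were 2-fold or more higher and 1 lower, against the shares of all genes given above. All 11 interstitial collagens were higher (median log2 ratio 1.07, that of Col5a3 at 133 against 63.3 CPM, and over all genes 0.03), led by Col1a1 with 2 UMIs at day 0 and 2388 at day 7 and Col1a2 with 1 and 1334. Of the 21 genes past 2-fold, 11 had at most 3 UMIs at day 0. At control day 7 Col1a1 also stood at 17.8 CPM in macrophages and 30.2 in T cells, against 33.0 in tumor barcodes. The urokinase gene Plau was the only one lower, with 4.02 against 9.61 CPM, followed by Ccn1 at 492 against 962.

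From control day 7 to control day 21, 3 of 94 were 2-fold or more higher and 18 lower, where 5.65% and 7.27% of all genes were. Of these 21 genes, 6 had at most 3 UMIs in 1 library. The higher ones were Ccn1 (2918 against 492 CPM, 5.93 times), its relative Ccn2 (172 against 75.5) and the proteoglycan gene Bgn (164 against 76.2). Among the 11 interstitial collagens 7 were 2-fold or more lower, and Col1a1 had 1.77 against 33.0 CPM and Col6a2 2 against 428 UMIs. Col3a1, at 0.840 times, was thus nearer to its day 7 level than the type I collagen genes were. Col1a1 was also lower in immune barcodes, with 2.60 against 17.8 CPM in macrophages and 3.59 against 30.2 in T cells. The T cells of control day 21 were only 67 barcodes.

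With L-fuc at day 7, none of 95 other matrix genes was 2-fold or more higher and 12 were lower, where 1.51% and 3.83% of all genes were. Of the 12, 4 were interstitial collagens and 2 had at most 3 UMIs in 1 library. Col1a1 had 4.82 against 33.0 CPM, and Lama2 2 against 35 UMIs. In immune barcodes the summed Col1a1 level was higher with L-fuc, at 43.2 against 17.8 CPM in macrophages and 71.2 against 30.2 in T cells. At L-fuc day 7, 1 barcode with 422 Col1a1 UMIs was counted in both of these classes, and another T cell barcode held 435. Levels without these barcodes were not computed, so no direction is read for the other immune barcodes. Whether tumor cells made the type I collagen RNA of tumor barcodes was not tested. Among the highest was Eln, the elastin gene, at 0.465 against 0.235 CPM. At day 21, 3 of 84 were 2-fold or more higher and 1 lower, where 1.87% and 0.713% of all genes were. The higher ones were Loxl1, which encodes a crosslinking enzyme (4.47 against 1.21 CPM), Col1a1 (6.23 against 1.77) and the syndecan gene Sdc3 (13.7 against 4.84). In immune barcodes of these libraries Col1a1 had 0.323 against 2.60 CPM in macrophages and 17.3 against 3.59 in T cells. These values rest on few UMIs, and the T cells were only 50 and 67 barcodes. As percents of the tumor level the 95% intervals were 0.610% to 19.8% against 74.4% to 291% in macrophages. In T cells they were 152% to 489% against 22.9% to 842%. Sparcl1, a relative of Sparc, was among the lowest at 153 against 229 CPM. The median log2 ratio of the 84 genes was 0.01, whereas that of the members was −0.30.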

How the data were processed

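RNA of single cells was measured in 5 gene expression libraries, 1 pooled library per condition, and 5 libraries of T cell receptor sequence were not used here. The authors deposited raw UMI counts per gene and barcode, aligned to mm10. The submitters' processing notes name Cell Ranger 3.0 and Seurat 4.0, whereas the matrix header names Cell Ranger 7.1.0, which by default also counts intronic reads. The study's methods describe the removal of doublets called by more than 1 of several tools after counting, and whether the deposited counts include them is not given in the sources used here.

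Barcodes with at least 500 genes and at most 10% mitochondrial UMIs were kept and summed by class. Libraries held 14439185 to 119047810 UMIs, so counting intervals of the members are narrow, but they say nothing of the spread between mice. Ratios were given exact conditional Poisson intervals, and shares exact binomial (Clopper-Pearson) intervals. Genes with at least 30 UMIs over both groups were compared, on log2 levels with 1 UMI added to each group where lists were counted.

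The 10 members, the gene lists and the tests were chosen with earlier results of these data known. All members are named, and of other matrix genes the 2 highest and 2 lowest per comparison, those 2-fold apart (some items are not reported here) and, for levels, genes picked after their values were seen. Gates on type I collagen, the depth range, the barcodes with no type I collagen UMI and the removal of single leading barcodes were added after seeing the data. Code was checked on simulated data and ran in Python 3.11.15 with numpy 2.4.6, scipy 1.17.1, pandas 2.3.3 and matplotlib 3.10.9.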

Additional observations from a re-analysis of the deposited data

Results flagged for a closer look

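For 5 members the ratio of L-fuc over control in tumor barcodes lay above 1 at day 7 and below 1 at day 21, with both counting intervals on one side of 1. How many of all genes did so was not counted. Mgp stood at 1.19 times the control level at day 7 and at 0.612 times at day 21. Ecrg4 stood at 1.14 and 0.750 times, Serpine2 at 1.06 and 0.721 times, and Tm4sf1 at 1.12 and 0.955 times. Postn stood at 1.05 and 0.771 times, but its day 7 value was 0.978 as a mean per barcode. The difference between the days was not tested, since each condition had 1 library.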

How the results depend on the processing

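No paired analysis was possible because each condition had 1 pooled library, and for the same reason no library could be left out of a group. The limits of these values are the pooled mice, the gate on a single Sox10 UMI, and free RNA and doublets, whose levels were not measured. Median depths of 7412 to 23424 UMIs per tumor barcode are a further limit. Low genes are limited by depth: at day 0, 3 UMIs of a gene are worth 0.655 CPM.

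The summed level at control day 7 over control day 0 (0.865) was 0.877 with at least 2 Sox10 UMIs. It was 0.873 without tumor barcodes that also passed the C1q or CD3 gate and 0.845 without the deepest 5% of barcodes. As a mean of per-barcode values it was 0.806, and in barcodes of 10000 to 30000 UMIs 0.841. At control day 21 over control day 7 (1.29) it was 1.26, 1.27, 1.31, 1.29 and 1.33 under the same settings, 1.22 when levels were taken outside mitochondrial, ribosomal and hemoglobin genes, and 1.30 in barcodes with no Col1a1 or Col1a2 UMI. For L-fuc at day 7 (1.01) it was 1.02 without the deepest barcodes, 1.02 outside those genes, 1.01 with no Col1a1 or Col1a2 UMI and 1.04 in the depth range, and it turned to 0.994 as a mean per barcode. For L-fuc at day 21 (0.801) it was 0.771 as a mean per barcode and 0.842 in the depth range.

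The tumor over T cell ratio of the summed level (median of the libraries 5.42) was 5.56 with at least 2 Sox10 UMIs, 6.52 without the deepest barcodes, 5.34 outside those genes and 7.55 as a mean per barcode, and the tumor over macrophage ratio (18.3) was 30.5, 19.1 and 8.62 under the last 3. The cycling ratio (0.940) was 0.928, 0.933, 0.890 and 0.990 under the same 4 settings and 0.963 with 1 Mki67 or Top2a UMI. The hypoxic ratio (0.887) was 0.896 with up to 20% mitochondrial UMIs, 0.896 without the deepest barcodes, 0.933 outside those genes and 0.962 as a mean per barcode. The share of tumor barcodes with several members (median 89.3%) was 91.9% with at least 2 Sox10 UMIs, 98.5% thinned to 2000 UMIs and 98.8% without thinning.

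Among single members, 13 of 360 values between conditions turned direction, 8 of them where the interval as reported included 1: Lama4 at control day 21 over control day 7 (5 settings, up to 1.31 in the depth range) and for L-fuc at day 21 (1.02 with no Col1a1 or Col1a2 UMI and 1.23 in the depth range), and Col18a1 for L-fuc at day 21 (1.14 in the depth range). The other 5 follow. Tm4sf1 at control day 21 over control day 7 was 1.00 both without the deepest barcodes and as a mean per barcode. Sparc in that comparison was 1.00 outside those genes, Postn for L-fuc at day 7 was 0.978 as a mean per barcode, and Lama4 for L-fuc at day 7 was 1.06 in the depth range. In cycling and hypoxic barcodes 12 of 150 medians turned, 5 of them with an interval that included 1: Col3a1 in cycling barcodes (1.00 as a mean per barcode and 1.03 with 1 Mki67 or Top2a UMI) and Ecrg4 in 3 settings (0.951 to 0.987). The other 7 follow. Without the deepest barcodes the cycling ratio was 1.01 for Serpinh1, 1.02 for Lama4 and 0.981 for Tm4sf1. As a mean per barcode it was 1.04 for Serpinh1 and 1.01 for Lama4. It was 0.988 for Tm4sf1 outside those genes, and the hypoxic ratio of Col18a1 was 1.00 as a mean per barcode. For these the cause was not tested. Of the 360 values 246 lay within the interval as reported, and of the 150 medians 100 did, with the rest outside it. Over 9 alternative settings Lama4 at control day 7 over control day 0 (1.55) went down to 1.17. Mgp for L-fuc at day 7 (1.19) went up to 1.50. The intervals thus do not cover the choice of settings. With at least 100 UMIs per gene 1120, 982, 375 and 113 genes were 2-fold or more apart in the 4 comparisons in the order given above, and with at least 1 UMI 6770, 6117, 3120 and 2969, where fewer or more genes were compared.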
